A study of Mus musculus with 4 samples.

Results

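Smad1 peaks were listed around 9 genes of the hypoxia pathway, Epas1, Hif1a, Hif3a, Arnt, Arnt2, Vhl, Egln1, Egln2 and Egln3. A peak was taken when any base of it lay inside the body of the gene, as GENCODE M21 draws it on mm10, or within 20 kb to either side. The rule used the names and positions of the genes and no measured value. Together, the 4 lists of called peaks held 32 peaks in these windows out of 66073, and the list of DMSO sites that both peak callers shared, called common sites here, held 5 of 10466. Peaks that overlapped each other were joined into 22 regions, which lay at 8 of the 9 genes and were numbered along the chromosome at each gene.

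The peaks came from Smad1 ChIP–seq of EBs, in which aggregated ES cells differentiate. The ES cell line was GFP-Bry, in which GFP reports the mesoderm gene Brachyury, and its strain label was C57BL/6. After reaggregation, EBs were kept for 24 h in the vehicle DMSO or in 10 µM IWR-1, which inhibits Wnt signalling, and were taken on day 4. For each treatment, 1 library of Smad1 ChIP and 1 of input chromatin were sequenced. Both treatments therefore shared the cell line, the reaggregation, the day and the antibody, and differed by IWR-1. EBs hold a mixture of cell types, and these peak lists cannot tell in which of them Smad1 was bound. No RNA was measured in these files, so the cell types were not checked against markers. With 1 library per treatment, differences between DMSO and IWR-1 could not be checked over replicates, and no p-value is printed. Read counts per peak were not analysed here, and the depth behind a peak is unknown.

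HIF transcription factors are pairs of bHLH-PAS proteins, made of an oxygen-sensitive alpha subunit (Hif1a, Epas1, which encodes HIF-2α, or Hif3a) and a stable partner (Arnt or Arnt2). When oxygen is plentiful, the prolyl hydroxylases Egln1, Egln2 and Egln3 modify the alpha subunit, and the ubiquitin ligase that holds Vhl marks it for degradation. When oxygen is scarce, the alpha subunit persists and the pair binds hypoxia response elements, whose core reads ACGTG or GCGTG. Epas1 and Hif1a are known for roles in blood vessels and in blood formation, and Smad1 carries BMP signals to the nucleus.

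Peaks had been called with MACS, which gives each peak a score, and with QESEQ, whose peaks carry positions only. The DMSO lists of both callers were recognised by their coordinates as the parents of the common sites, because their sample labels name other libraries. For IWR-1, QESEQ peaks were those whose sample label names that treatment. The other MACS list is labelled as the DMSO ChIP. It was given to IWR-1 by elimination, and the name under which the list was deposited also says IWR-1. Because sample label and name disagree, it is called the second MACS list, and each value from it rests on that assignment. MACS scores were compared only within their own list. A place without a call is one that did not pass a caller's threshold.

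The sequences below are 200 bp of mm10, read 5′ to 3′ on the plus strand from GRCm38, the assembly behind mm10. Capitals mark, on either strand, the Smad elements GGCGCC and GGAGCC with GTCTAGAC and CAGACA, the TCF/LEF elements CTTTGAT and CTTTGTT, which share the letters CTTTG, the GATA element AGATAA, the AP-1 element TGACTCA, the hypoxia response core ACGTG or GCGTG, and runs of at least 7 A or 7 T. ACGTG also lies inside the E-box CACGTG. The first set holds the middle of the 4 Epas1 regions, because they carry every call made at the gene.
Epas1 region 1, chr17:86751429-86751628: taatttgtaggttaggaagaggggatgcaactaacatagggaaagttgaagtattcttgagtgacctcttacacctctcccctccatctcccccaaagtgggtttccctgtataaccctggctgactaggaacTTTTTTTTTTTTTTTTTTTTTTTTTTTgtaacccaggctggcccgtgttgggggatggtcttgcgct
Epas1 region 2, chr17:86798859-86799058: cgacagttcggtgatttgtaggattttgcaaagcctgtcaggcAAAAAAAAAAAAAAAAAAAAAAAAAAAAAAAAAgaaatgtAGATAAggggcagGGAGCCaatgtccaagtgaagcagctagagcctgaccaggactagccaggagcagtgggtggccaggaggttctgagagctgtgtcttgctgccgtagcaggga
Epas1 region 3, chr17:86800423-86800622: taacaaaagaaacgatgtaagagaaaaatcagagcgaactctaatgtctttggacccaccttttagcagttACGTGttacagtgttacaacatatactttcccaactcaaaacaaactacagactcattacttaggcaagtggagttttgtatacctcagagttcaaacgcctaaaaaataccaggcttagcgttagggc
Epas1 region 4, chr17:86808647-86808846: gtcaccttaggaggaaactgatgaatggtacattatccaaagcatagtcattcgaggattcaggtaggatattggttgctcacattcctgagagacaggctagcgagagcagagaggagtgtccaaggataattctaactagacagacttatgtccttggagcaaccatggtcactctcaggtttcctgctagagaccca

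The second set holds the 5 common sites, the places at which both callers agreed in DMSO. The Hif1a stretch begins at the first coding base, and the other 4 are the middle of the site.
Hif1a region 2, chr12:73908290-73908489: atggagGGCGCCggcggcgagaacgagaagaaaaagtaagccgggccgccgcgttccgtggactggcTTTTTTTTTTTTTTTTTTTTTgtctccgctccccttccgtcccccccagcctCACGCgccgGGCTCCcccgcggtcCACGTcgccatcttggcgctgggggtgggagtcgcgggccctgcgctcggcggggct
Hif3a region 2, chr7:17053045-17053244: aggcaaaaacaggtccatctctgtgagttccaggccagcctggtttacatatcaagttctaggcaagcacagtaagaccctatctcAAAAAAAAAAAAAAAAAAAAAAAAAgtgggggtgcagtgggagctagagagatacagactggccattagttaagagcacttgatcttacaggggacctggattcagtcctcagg
Arnt region 2, chr3:95511691-95511890: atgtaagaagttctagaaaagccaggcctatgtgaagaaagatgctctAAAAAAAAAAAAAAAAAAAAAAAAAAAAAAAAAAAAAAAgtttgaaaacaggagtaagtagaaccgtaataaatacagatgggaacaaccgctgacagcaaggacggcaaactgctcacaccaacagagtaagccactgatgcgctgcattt
Egln1 region 1, chr8:124892226-124892425: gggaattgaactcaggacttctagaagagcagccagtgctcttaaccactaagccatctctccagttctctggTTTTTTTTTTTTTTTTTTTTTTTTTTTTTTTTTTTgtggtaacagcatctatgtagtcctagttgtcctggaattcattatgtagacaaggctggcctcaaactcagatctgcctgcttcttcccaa
Egln3 region 1, chr12:54165425-54165624: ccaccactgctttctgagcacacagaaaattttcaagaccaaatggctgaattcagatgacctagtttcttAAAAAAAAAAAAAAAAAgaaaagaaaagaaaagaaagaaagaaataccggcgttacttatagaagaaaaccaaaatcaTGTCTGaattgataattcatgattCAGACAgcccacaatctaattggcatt

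The third set holds the middle of the DMSO peak in 4 regions with a call in DMSO and in an IWR-1 list, which are the only such regions among the 22.
Hif1a region 1, chr12:73902513-73902712: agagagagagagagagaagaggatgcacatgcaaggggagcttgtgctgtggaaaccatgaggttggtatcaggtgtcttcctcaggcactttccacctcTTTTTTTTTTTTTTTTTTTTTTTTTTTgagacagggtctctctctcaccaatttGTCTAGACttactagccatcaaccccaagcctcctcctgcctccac
Hif3a region 1, chr7:17047627-17047826: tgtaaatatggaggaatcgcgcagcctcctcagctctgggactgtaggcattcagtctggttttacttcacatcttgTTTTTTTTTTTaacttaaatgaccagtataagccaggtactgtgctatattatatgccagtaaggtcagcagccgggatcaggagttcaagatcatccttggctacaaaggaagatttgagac
Vhl region 1, chr6:113636123-113636322: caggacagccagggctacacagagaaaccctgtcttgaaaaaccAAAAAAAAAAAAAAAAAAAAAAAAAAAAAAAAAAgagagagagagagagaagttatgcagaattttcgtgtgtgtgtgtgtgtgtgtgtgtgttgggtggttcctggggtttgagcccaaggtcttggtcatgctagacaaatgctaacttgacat
Egln2 region 3, chr7:27150414-27150613: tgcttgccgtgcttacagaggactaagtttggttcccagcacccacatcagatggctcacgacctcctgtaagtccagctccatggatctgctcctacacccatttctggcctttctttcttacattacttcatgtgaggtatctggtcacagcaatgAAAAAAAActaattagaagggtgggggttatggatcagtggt

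Epas1 (ENSMUSG00000024140.10) occupies 86753700 to 86833410 of chromosome 17, plus strand. QESEQ listed 3 DMSO peaks there, and neither MACS list had a peak within 20 kb of the gene. Region 1 spanned 86751363 to 86751693, with its centre at −2.17 kb from the transcript start. Its sequence held GCGTG at 2 places and a run of 27 T. Regions 2 and 3 lay close together in intron 2. Region 2 spanned 86798734 to 86799183, centred at 45.3 kb from the start, and held GGAGCC with CAGACA, with AGATAA at 2 places and a run of 33 A. Region 3 spanned 86800358 to 86800687, centred at 46.8 kb, and held ACGTG and CTTTGAT but no run of 7 A. Region 4, in intron 4 from 86808511 to 86808981, was called by QESEQ with IWR-1 only, and none of the searched elements or runs was found in it. The DMSO and IWR-1 calls at Epas1 did not overlap, and the IWR-1 call lay 7823 bp from the nearest DMSO peak. Over the genome, 25.8% of all DMSO QESEQ peaks overlapped an IWR-1 QESEQ peak, and 52.9% of IWR-1 QESEQ peaks lay outside both DMSO lists. No common site lay in the 120 kb window of Epas1, and the nearest began 105134 bp downstream of the gene. Of the 2197 protein-coding genes with a window within 20% of that length, 48.2% had a common site and 13.8% had no peak of any called list.

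Hif1a (ENSMUSG00000021109.13), the most widely expressed alpha subunit, occupies 73901375 to 73947530 of chromosome 12, plus strand. Its common site, region 2, spanned 73908016 to 73908628, from 112 to 724 bp after the main transcript start at 73907904. It was the only one of the 5 common sites at the start of a gene of the pathway, covering part of exon 1 and of intron 1. MACS scored it 75.67 in DMSO, at percentile 69.5 of the list. GGCGCC lay inside the coding sequence at 73908296, after 6 coding bases, and exon 1 ended at 73908324. GGAGCC with ACGTG and GCGTG, and a run of 21 T, also lay in the site, and its GC content of 72.8% was the highest of the 22 regions. Neither IWR-1 list had a peak over it. The nearest second MACS peak lay 5208 bp away, and the nearest IWR-1 QESEQ peak lay 144882 bp away.

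That second MACS peak belonged to Hif1a region 1, which spanned 73902390 to 73902807, at −5.31 kb from the main transcript start and inside the gene body. MACS called it in DMSO with a score of 69.84, at percentile 59.7, and the second MACS list called it with a score of 64.75, at percentile 55.3 of its own list. QESEQ called it in neither treatment. It held GTCTAGAC, the palindromic Smad box, beside a run of 27 T. Both Hif1a regions also lay in an intron of the antisense gene Gm15283, and ChIP signal cannot assign a region to one strand.

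Hif3a (ENSMUSG00000004328.15) encodes an alpha subunit with several isoforms, some of which restrain the other HIFs. It occupies 17031507 to 17062427 of chromosome 7, minus strand. Its common site spanned 17052992 to 17053296 in intron 3, and the joined region was centred at 3.61 kb from the main transcript start. The DMSO MACS score of 141.22 was the highest near the 9 genes, at percentile 95. Repeats covered 75.4% of the region, and A or T ran for up to 40 bases. GCGTG occurred at 2 places, both in the part that MACS alone had called. No IWR-1 peak lay over it in either list. Region 1, in intron 8 from 17047514 to 17047938, was called by QESEQ in DMSO and in the second MACS list with a score of 59.04, at percentile 39.3. It held CAGACA at 3 places.

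**Figure D1:**
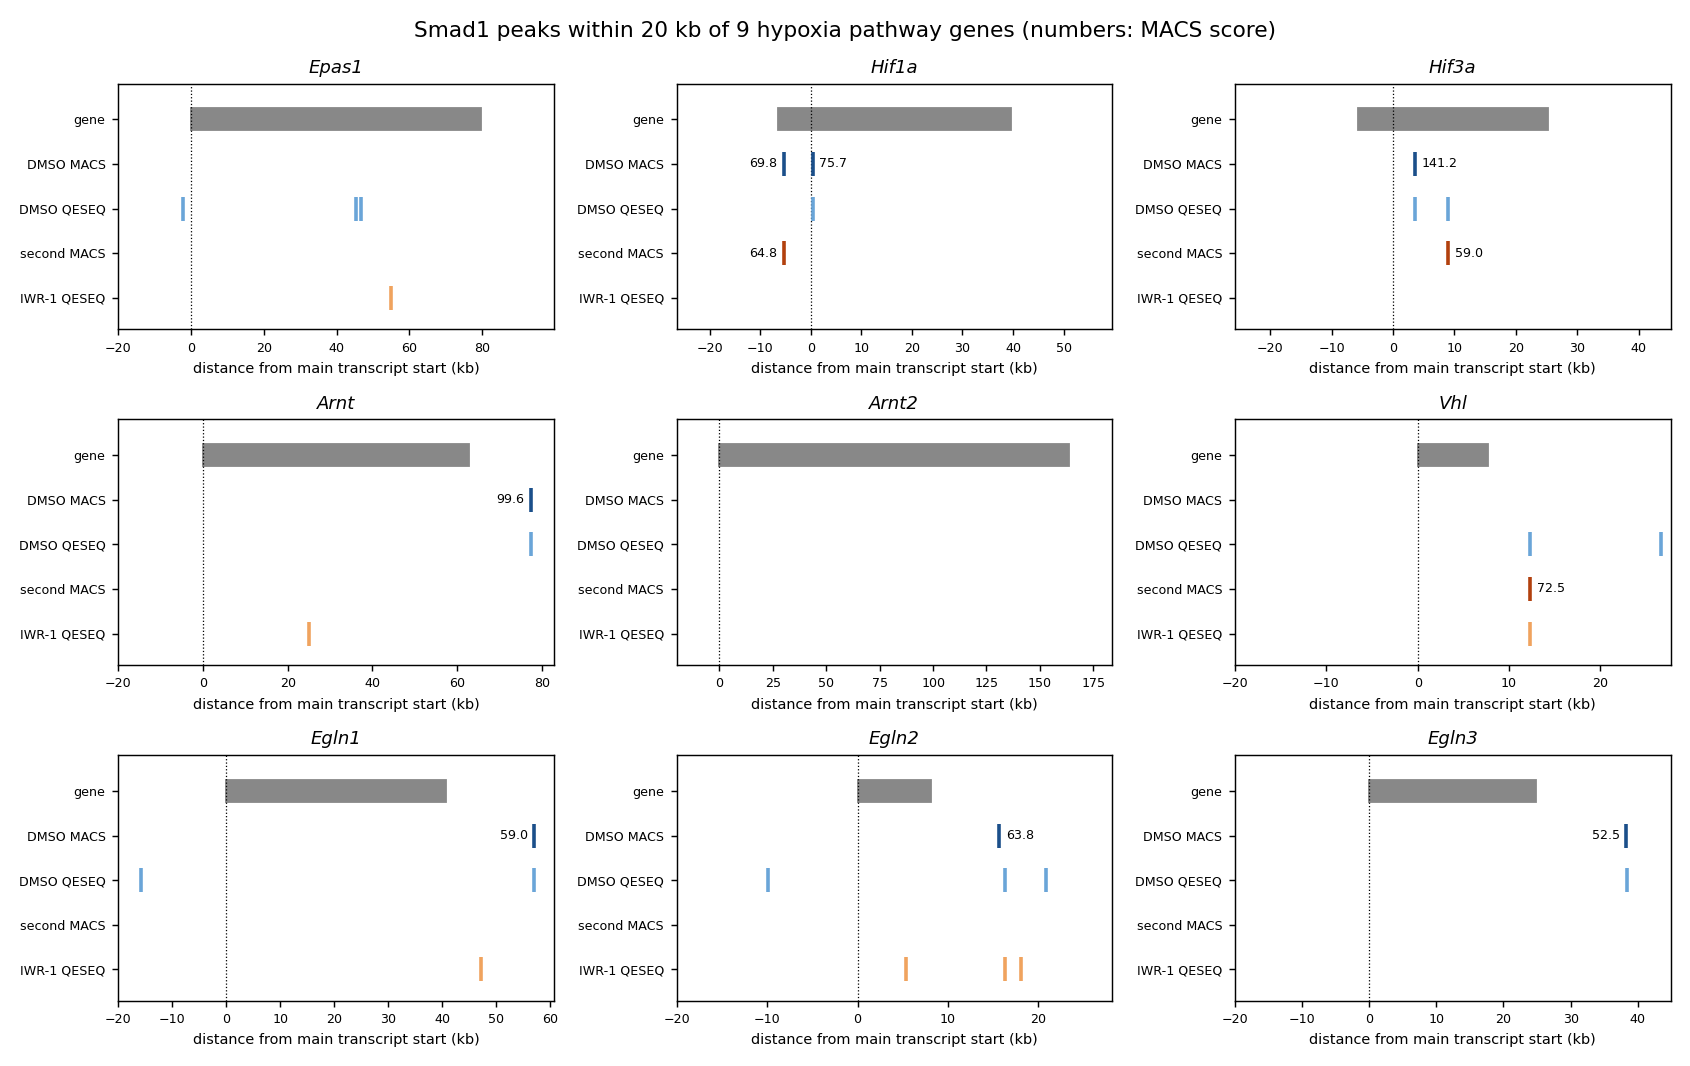
Each panel shows 1 gene and the 20 kb to either side, with distance from the main transcript start in kb on the horizontal axis, the gene body in grey and 1 row per list of called peaks, and the numbers are MACS scores. Epas1 has 3 DMSO QESEQ peaks and 1 IWR-1 QESEQ peak that do not overlap, Arnt2 has no peak, and the highest score, 141.2, is at Hif3a.

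Arnt (ENSMUSG00000015522.18), the common partner of the alpha subunits, occupies 95434388 to 95497240 of chromosome 3, plus strand. Its common site spanned 95511503 to 95512078 and began 14.3 kb downstream of the gene. The score was 99.61, at percentile 88.4, the next highest after Hif3a. AGATAA and TGACTCA lay in it with a run of 39 A, and no Smad element or hypoxia response core was found. Neither IWR-1 list called it. Region 1, in intron 3 from 95459012 to 95459666, was called by QESEQ with IWR-1 only. It held GTCTAGAC and a run of 13 A or T.

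Arnt2 (ENSMUSG00000015709.9), the partner used mainly in neural tissue, occupies 84246278 to 84410176 of chromosome 7, minus strand. No list had a peak in its window of 204 kb, the longest of the 9. The nearest peak of any list was an IWR-1 QESEQ peak 84.4 kb upstream, and the nearest common site lay 122 kb downstream. Of 940 protein-coding genes with a window within 20% of that length, 77 had no called peak (8.19%), and 57.2% had a common site.

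Vhl (ENSMUSG00000033933.13), the part of the ubiquitin ligase that recognises hydroxylated alpha subunits, occupies 113623959 to 113631633 of chromosome 6, plus strand. Region 1 began 4422 bp downstream of the gene and spanned 113636056 to 113636479. QESEQ called it in DMSO from 113636056 to 113636388 and with IWR-1 from 113636192 to 113636428. The second MACS list called it with a score of 72.47, at percentile 68.3, and the DMSO MACS list did not call it. It was the only one of the 22 regions in both IWR-1 lists. CAGACA and a run of 34 A lay in the region, of which repeats covered 63.0%. Region 2, a DMSO QESEQ peak from 113650311 to 113650791, lay in an intron of the neighbouring gene Irak2.

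Egln1 (ENSMUSG00000031987.6), the main oxygen sensor among the prolyl hydroxylases, occupies 124908587 to 124949324 of chromosome 8, minus strand. The common site near it spanned 124892114 to 124892537, 16049 bp downstream of the gene, with a score of 58.97 at percentile 32.7. It held CAGACA and a run of 35 T. The E-box CACGTG, which reads ACGTG on either strand, occurred in the part of the region that MACS alone had called. Region 2, from 124901683 to 124902512, was an IWR-1 QESEQ peak over an exon of the neighbouring gene Sprtn. It held CAGACA at 3 places and GCGTG at 2 places, with GGAGCC and AGATAA, and no run of 7 A. Region 3, a DMSO QESEQ peak from 124964735 to 124965441, was centred at −15.8 kb from the transcript start.

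Egln2 (ENSMUSG00000058709.11), a prolyl hydroxylase known as a target of oestrogen signalling, occupies 27158658 to 27166802 of chromosome 7, minus strand. It had the most regions of the 9 genes, 6 of 22, and no common site. Region 3, downstream of the gene from 27150253 to 27150773, was called by QESEQ in DMSO and with IWR-1. Region 4, a DMSO MACS peak from 27150912 to 27151341 with a score of 63.84 at percentile 46.5, lay 138 bp from region 3, so the callers marked neighbouring places without overlap. A or T ran there for up to 52 bases. Regions 2 and 5 were called by QESEQ with IWR-1 only. Region 2 lay over a processed pseudogene from 27148398 to 27149083, where reads may be shared with the parent gene. Region 5 lay in intron 2 of Egln2 from 27161023 to 27161762 and held CAGACA at 3 places. Regions 1 and 6 were DMSO QESEQ peaks, from 27145804 to 27146173 and from 27176461 to 27176850, the latter in an intron of Rab4b.

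Egln3 (ENSMUSG00000035105.5), a prolyl hydroxylase that hypoxia itself induces, occupies 54178981 to 54203860 of chromosome 12, minus strand. Its only region held the common site from 54165365 to 54165684, which lay 13.3 kb downstream of the gene. The score of 52.46, at percentile 10.1, was the lowest of the 7 DMSO MACS peaks and close to the lowest score in the list, 50. CAGACA occurred at 2 places beside a run of 17 A. No IWR-1 peak of either list overlapped it.

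**Figure D2:**
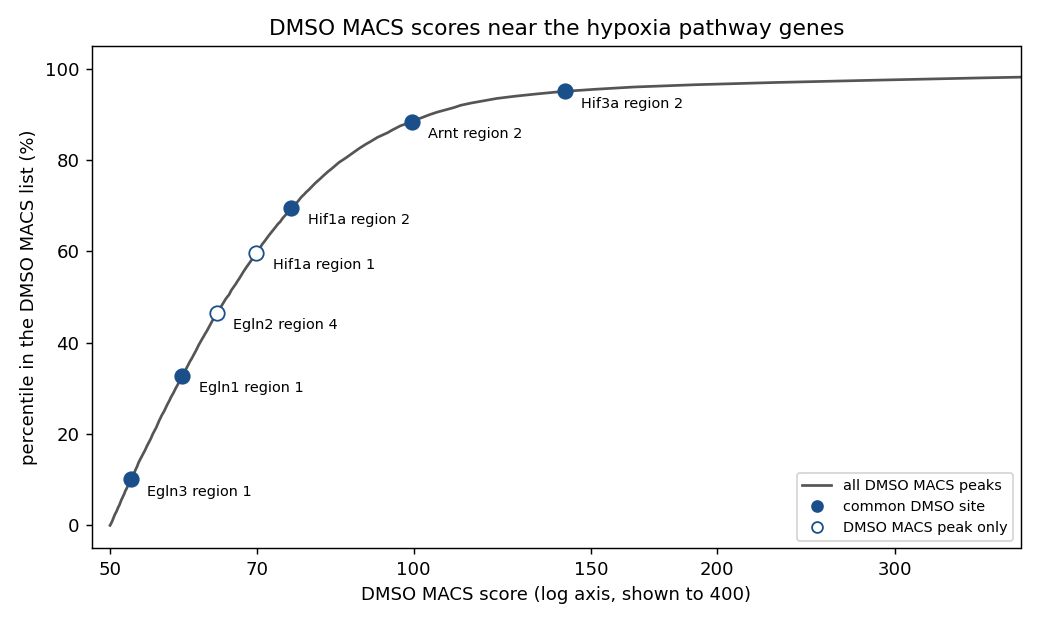
The line gives the percentile of each score among all 15927 DMSO MACS peaks, on a log axis of the score, and the points are the 7 peaks near the hypoxia pathway genes, filled where they underlie a common site. Scores run from 52.46 at Egln3 to 141.22 at Hif3a.

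Of the 9 genes, 5 had a common site within 20 kb (55.6%, 95% exact binomial interval 21.2 to 86.3), where 35.1% of 21938 protein-coding genes had one. At least 1 called peak lay near 8 of the 9 (88.9%, 51.8 to 99.7), where 71.7% of protein-coding genes had one. The shares of protein-coding genes are not matched for window length. A common site lay near 48.2% of genes with windows like that of Epas1 and 57.2% of those with windows like that of Arnt2. Epas1 and Arnt2 have the longest windows of the 9 genes. The intervals here and those that follow cover counting error only. Per 100 kb, the windows of the 9 genes held 0.606 common sites against 0.384 over the genome, and 1.82 DMSO QESEQ peaks against 0.957. For the second MACS list the values were 0.364 and 0.287. The genome values divide by the whole chromosome length, including sequence far from genes, so they are not matched to windows around genes. The median DMSO MACS score of the 7 peaks was 69.84 against 65.32 over the list, and 4 of the 7 lay above the list's median. QESEQ called more of the regions than MACS did, as it did over the genome, with 26070 against 15927 peaks in DMSO. Of 15 DMSO QESEQ peaks, 5 overlapped a DMSO MACS peak (33.3%, 11.8 to 61.6), and 42.9% of all DMSO QESEQ peaks did. By place, 9 of the 22 regions overlapped the gene, 10 lay downstream and 3 upstream. Egln1 at 16049 bp, Arnt at 14.3 kb and Egln3 at 13.3 kb had their common site outside the gene. None of the 22 regions lay at a tRNA gene, and the share of all peaks at such genes is not given here. The window of 20 kb set which peaks were counted. The farthest region inside it lay 18.7 kb from Vhl, and the nearest peaks outside were an IWR-1 QESEQ peak 21.9 kb from Vhl and a DMSO QESEQ peak 22.1 kb from Hif1a.

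With IWR-1, none of the 5 common sites was called. The IWR-1 QESEQ list overlapped 0 of 5, an interval of 0 to 52.2%, where it overlapped 37.0% of all common sites. The second MACS list also overlapped 0 of 5, where it overlapped 25.8% of all common sites. Both shares over all common sites lie inside the interval of the 5 sites, so a difference from them was not detectable with 5 sites. Sites of higher score were called more often over the genome, and the 5 sites differ widely in score. Among DMSO common sites in the same score decile as Hif3a, 80.3% had a call in either IWR-1 list. That share was 55.1% for the decile that holds Arnt, 46.4% for Hif1a, 35% for Egln1 and 31.5% for Egln3. The site in Hif3a was thus without a call in a group where most sites had one. That decile runs from a score of 101.47 to 2082.35, and Hif3a, with 141.22, lies near its lower end. The share among sites of about its own score is not given here.

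Peaks outside the common sites were called again in both treatments at a few places. Of the 15 DMSO QESEQ peaks, 2 overlapped an IWR-1 QESEQ peak (13.3%, 1.66 to 40.5), those of Vhl region 1 and Egln2 region 3, and the share over the list was 25.8%. Of the 7 DMSO MACS peaks, 1 overlapped the second MACS list (14.3%, 0.361 to 57.9), that of Hif1a region 1, and the share over the list was 28.5%. Hif3a region 1 was called by QESEQ in DMSO and by MACS in the second list, so its calls crossed callers. Altogether, 17 regions had a DMSO call and 9 had a call in an IWR-1 list. DMSO calls alone marked 13 regions, calls of both treatments 4, and IWR-1 calls alone 5. The same split over the genome is not given here, and the DMSO lists are the longer ones everywhere. MACS listed 15927 peaks in DMSO against 7815 in the second list, and QESEQ listed 26070 in DMSO against 16261 with IWR-1.

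The 5 regions with IWR-1 calls alone, Epas1 region 4, Arnt region 1, Egln1 region 2 and Egln2 regions 2 and 5, were all QESEQ peaks. Of the 7 IWR-1 QESEQ peaks, 5 lay outside both DMSO lists (71.4%, 29.0 to 96.3), where 52.9% of that list did. Of the same 7, 1 overlapped the second MACS list, at Vhl, where 26.4% of the list did. Of the 3 second MACS peaks, 0 lay outside the DMSO lists (0 to 70.8%), where 29.0% of that list did. The IWR-1-only regions were 471 to 830 bp wide with a median of 686 bp, and such peaks had a median of 498 bp over the genome. Their GC content was 43.7 to 52.8%, with a median of 52.2% against 43.9% for such peaks over the genome. A run of 7 A or T occurred in 1 of the 5 and in 16 of the 17 regions with a DMSO call. Over the genome, 55.6% of IWR-1 QESEQ peaks outside the DMSO lists held such a run and 79.8% of DMSO QESEQ peaks did. Whether these runs take part in the calls was not tested.

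**Figure D3:**
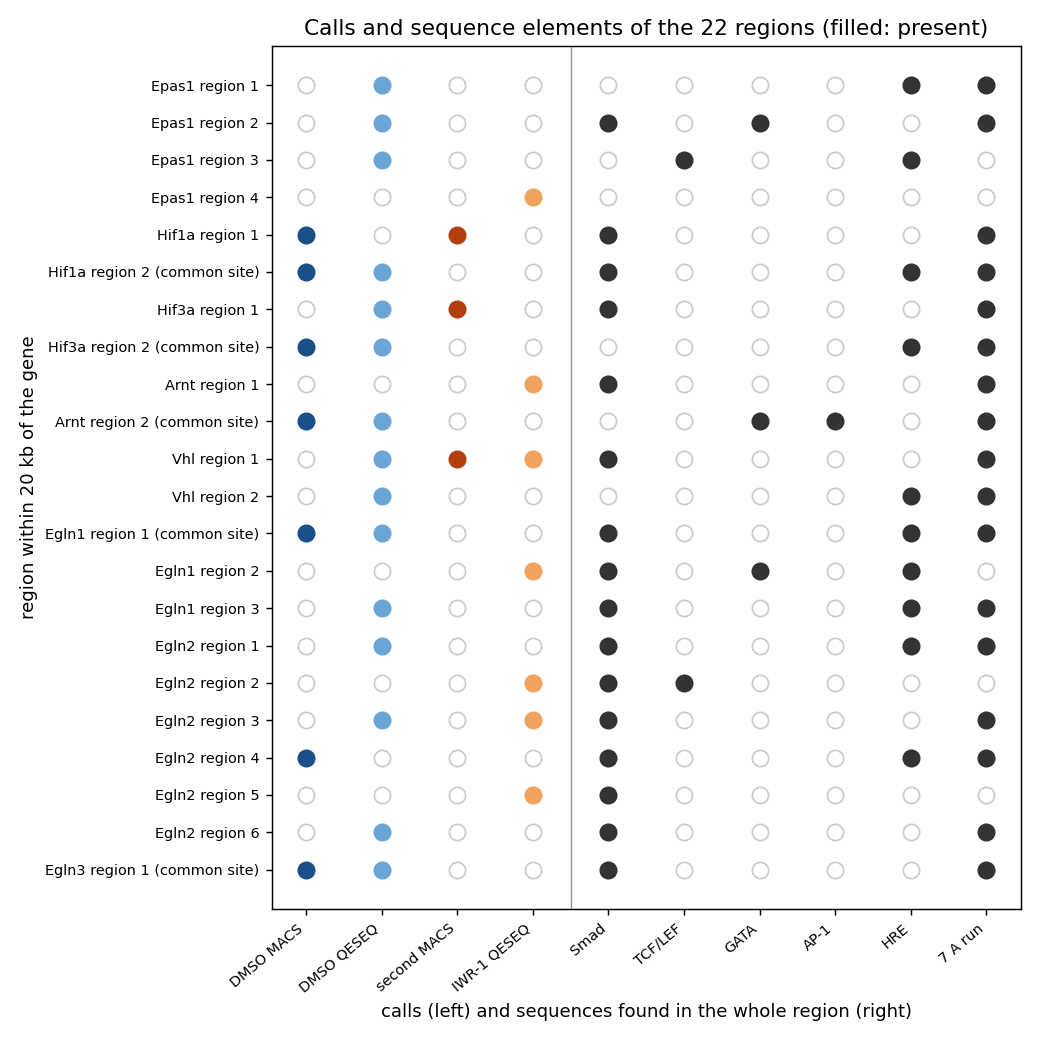
Each row is 1 of the 22 regions, the 4 columns on the left are the called lists and the 6 on the right are groups of sequence elements searched in the whole region, and a filled circle means present. The common sites fill both DMSO columns and neither IWR-1 column, and the 5 regions with IWR-1 calls alone show a run of 7 A in 1 case, Arnt region 1.

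Sequence elements at the 5 common sites were compared with all 10466 common sites in the central 200 bp. A Smad element lay in 2 of 5, Hif1a with GGCGCC and Egln3 with CAGACA, and in 22.1% of all common sites. GGCGCC was found in 1.08% of all common sites and CAGACA in 14.7%. GGAGCC, present in 7.78% of all sites, was in 0 of 5, and GTCTAGAC, present in 0.134%, was in 0 of 5. The hypoxia response core lay in 1 of 5, as GCGTG at Hif1a, and in 15.3% of all sites, with GCGTG in 9.50% and ACGTG in 6.72%. No TCF/LEF element was found in the 5, where 8.86% of all sites held one. AGATAA and TGACTCA were in 0 of 5 and in 9.96% and 2.91% of all sites. A run of 7 A or T lay in all 5 and in 76.1% of all common sites. In the whole of the 22 regions, which are wider than 200 bp, a Smad element was found in 16 and a hypoxia response core in 10, where 44.2% and 35.9% of whole common sites held one. AGATAA was found in 3, a TCF/LEF element in 2 and TGACTCA in 1, against 21.1%, 18.3% and 6.68% of whole common sites. These shares are not matched for width or for class of peak, because most of the 22 regions are not common sites. GTCTAGAC lay in 2 of the 22, Hif1a region 1 and Arnt region 1, and in 0.411% of whole common sites. Neither of these regions is a common site. A match of so few letters is a description of the sequence and not a bound site.

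Promoter windows around the transcript start, from RefSeq on GRCm38.p6, were listed for 8 of the 9 genes, with 9 promoters in all. ACGTG lay in 4 of the 9, of Hif1a, Egln1, Egln2 and Egln3, and in 19.6% of 32851 promoters. GCGTG lay in 5 of the 9 and in 32.4% of all promoters. No peak of the 4 called lists overlapped any of the 9 promoters. The share of all promoters that a called peak overlaps is not given here, so this count has no background beside it. The Hif1a common site began just after its promoter window, 112 bp after the main transcript start. The count of overlaps thus depends on how far the promoter windows reach.

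Wider lists placed the 9 genes among their neighbours in the pathway. Their counts are read against the shares over the genome, 35.1% of protein-coding genes with a common site, and 37.0% of common sites called by QESEQ with IWR-1 and 25.8% in the second MACS list. These shares are not matched for window length or score. Over all common sites, the QESEQ share was 27.8% in the lowest score decile and 66.3% in the highest. Of 17 other regulators of HIF, 9 genes had a common site. Their 15 sites had a median score of 86.33. QESEQ called 6 of the 15 with IWR-1 (40%, 16.3 to 67.7, against 37.0% over all), and the second MACS list called 8 (53.3%, 26.6 to 78.7, against 25.8% over all). The 37.0% lies inside the QESEQ interval, and the 25.8% lies just below that of the second MACS list. The highest score, 1052.32, was near Rack1, which promotes HIF degradation, at a site over a tRNA gene. Next came Os9, with 397.28 at a site in an intron of Agap2, and Cited2, which competes with HIF for its coactivators, with 217.3 at its exon 1. The sites near Rack1, Os9 and Cited2 were called in both IWR-1 lists. The site in intron 2 of Rbx1, a subunit of the Vhl ligase, scored 177.08 and was called in the second MACS list only.

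Of 11 other bHLH-PAS genes, 5 had a common site, where 35.1% of protein-coding genes had one. Of their 7 sites, 2 were called by QESEQ with IWR-1 and 2 in the second MACS list (28.6% each, 3.67 to 71.0), against 37.0% and 25.8% of all common sites, both inside the interval. The site upstream of Arntl, the partner of Clock in the circadian clock, scored 75.5 and was called in the second MACS list. Those near Sim1, with 68.55, and Npas2, with 66.55, had no IWR-1 call, and that near Npas4, with 56.15, had one in both lists. Of 30 known HIF targets, 12 had a common site, close to the 35.1% of protein-coding genes. QESEQ called 11 of their 16 sites with IWR-1 (68.8%, 41.3 to 89.0), where it called 37.0% of all common sites. The second MACS list called 6 of the 16 (37.5%, 15.2 to 64.6), where it called 25.8% of all. The 37.0% lies below the QESEQ interval, and the 25.8% lies inside that of the second MACS list. The median score of the 16 sites was 64.22. The highest of these scores was 343.78 near Car9, a carbonic anhydrase, at a site that overlapped the RNA gene Rmrp. The site in intron 12 of Tek, the angiopoietin receptor, scored 108.03, and both were called in both IWR-1 lists. Near Epo, the hormone of red cell formation, the highest score was 84.9 with a call in the second MACS list only. Near Tfrc, the transferrin receptor, a site in Tnk2 scored 80.99 and was called by QESEQ only. Differences between the lists were not tested.

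**Figure D4:**
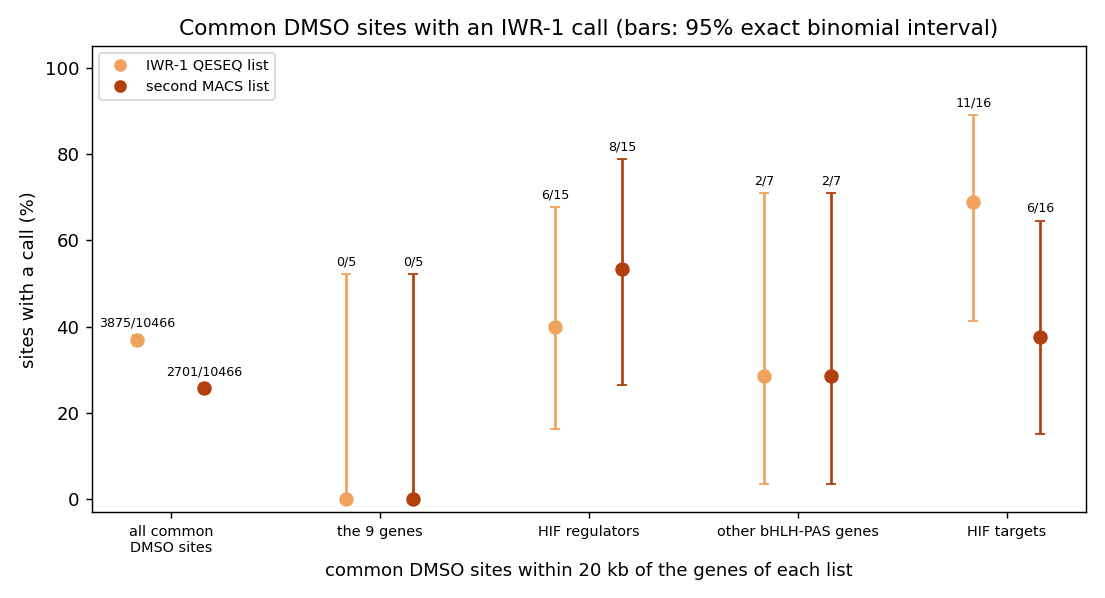
Points give the percentage of common DMSO sites with an IWR-1 call, for all common sites, for the 5 near the 9 genes and for the sites near 3 wider lists of genes, with 95% exact binomial intervals as bars and the counts above them. The 9 genes are at 0 of 5 in both lists, with an upper limit of 52.2% that takes in the values of all common sites.

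The genes of the wider lists whose peaks were most like those of Epas1 were Hk2, Ddit4 and Elob. Likeness was measured as the Euclidean distance between peaks per 100 kb in the 5 lists, and was 0.391 for Hk2, 0.846 for Ddit4 and 0.873 for Elob. Epas1 had 2.51 DMSO QESEQ peaks and 0.835 IWR-1 QESEQ peaks per 100 kb, and Hk2 had 2.24 and 1.12. Ddit4 had 2.37 DMSO QESEQ peaks per 100 kb and Elob had 2.25, and neither had an IWR-1 QESEQ peak. All 4 genes had no MACS peak and no common site, and these densities were also those on which the likeness was measured.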

How the data were processed

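Smad1 ChIP and input chromatin of day 4 EBs were sequenced with 1 library of each per treatment. The authors aligned reads to mm10 with Bowtie2 (2.1.0 in the submitters' processing notes), took out PCR duplicates and called peaks with MACS (1.0.1) and QESEQ. Every deposited list gives positions, and for the 2 MACS lists the authors deposited the MACS score of each peak. QESEQ positions were read as counted from 0, and all positions are given counted from 1. Replicates and read counts were not analysed here, so no count model was fitted and depth per peak is unknown.

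Peaks within 20 kb of the gene bodies of GENCODE M21 were taken, and overlap was counted from 1 bp. A common site took the score of its overlapping DMSO MACS peak, the highest where several overlapped. Percentiles are within the MACS list named and deciles over the common sites. The main transcript was the principal coding transcript. Shares carry 95% exact binomial (Clopper-Pearson) intervals. Motifs were searched on both strands. All peaks of the 9 genes were described, with the 4 genes of highest score in each wider list and the 3 most like Epas1. The genes, lists and rules were chosen with earlier results of these data known. Alternatives covered the window, caller, score, overlap and motif window. The overlap and motif steps recovered 10000 of 10000 and 2200 of 2200 planted cases in simulated data. Scripts ran in Python 3.11.15 and used scipy 1.17.1, numpy 2.4.6, matplotlib 3.10.9 and pysam 0.24.0.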

Additional observations from a re-analysis of the deposited data

How the results depend on the processing

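The 5 common sites became 2 within the gene bodies, 2 within 10 kb, 3 at a score of at least 70 and 1 at a score of at least 100. The 15 DMSO QESEQ peaks became 5 within the gene bodies, 9 within 10 kb and 24 within 50 kb, and MACS listed 7. The 5 IWR-1 QESEQ peaks outside the DMSO lists became 3 within the gene bodies, and 0 when the second MACS list was used or had to overlap the peak. The 13.3% of DMSO QESEQ peaks with an IWR-1 QESEQ call became 0 of 5 within the gene bodies, 22.2% within 10 kb (2 of 9) and 25% within 50 kb (6 of 24), close to the 25.8% of the whole list, in settings added once the data had been seen. The windows and thresholds themselves remove or add peaks in these cases. The share of common sites with an IWR-1 call was 0 under every alternative run, with 2 to 7 sites, and without those that hold a run of 7 A none was left. Epas1 had no common site within 50 kb. No paired analysis was possible because each treatment had 1 library. Few sites, single libraries and peak calls without read counts limit every value. Calls of the second MACS list rest on an assignment by elimination and by the list's name, against its sample label.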

Other observations

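Just beyond the windows, QESEQ called a place upstream of Epas1 in both treatments, from 86723010 to 86723466 in DMSO and from 86723110 to 86723540 with IWR-1, 30.2 kb from the gene in each list. Upstream of Egln1, 26.4 kb from the gene in DMSO and 26.3 kb with IWR-1, QESEQ also called 1 place in both treatments. Upstream of Hif1a, 129 kb away in an intron of Prkch, MACS called a place with a score of 139.11 in DMSO and 159.59 in the second list. Upstream of Arnt, 38.8 kb from the gene, MACS called a place with a score of 55.29 in DMSO and 68.34 in the second list, and QESEQ called it with IWR-1. The MACS scores belong to separate lists, so a higher value in the second list is not a measure of stronger binding with IWR-1. These places were picked after their calls were seen.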
